A study of Homo sapiens with 30 samples.

Results

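Chromosome ends were taken as the first 100 kb of each of chromosomes 1 to 22, leaving out the short arms of the 5 acrocentric chromosomes (13, 14, 15, 21 and 22), and the last 100 kb before the largest peak end seen on that chromosome in any list. This gave 39 ends, 17 on short arms (p) and 22 on long arms (q), on the hg19 build. A peak was a member when it lay wholly inside such a window. Of 577423 peaks on chromosomes 1 to 22 in 30 lists, 3069 were members: 2186 in 25 lists for H3K27ac and 883 in 5 lists for H3K27me3. Because each q window closes at the largest peak end, every q end holds a peak in at least 1 list by construction. The peak that sets it came from H3K27ac lists alone at 17 q ends, from an H3K27me3 list alone at 3 and from both at 2.

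The lists came from CUT&Tag of the human cell line K562, which derives from chronic myeloid leukaemia. In this assay an antibody on chromatin brings in a transposase that cuts and tags nearby DNA. Each experiment used 500000 cells. At 15 PCR cycles, all with SDS extraction of the DNA, there were 6 untreated libraries (Abcam-ab177178 1/100, Abcam-ab4729 1/100, Active Motif 39133 1/100, Diagenode C15410196 1/100 and 1/50, all against H3K27ac, and CST9733 1/100 against H3K27me3). Another 4 libraries at 15 cycles received trichostatin A (TSA, a histone deacetylase inhibitor): ab177178 1/100, ab4729 1/100 and Diagenode at both dilutions. The remaining 20 were untreated and crossed 5 antibodies (Diagenode at 1/50, the others at 1/100) with SDS or column extraction and 11 or 13 cycles, and their reads had been reduced to one common number before duplicates were removed and peaks called. With a single library for each condition, values carry no replicate error, and the labels do not say whether cultures were separate. The peak lists name no genes, so the identity of the cells was not checked against marker genes.

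Chromosomes end in telomeres, arrays of a short repeat bound by protecting proteins. Next to them lie subtelomeres, in which blocks of sequence are copied between several chromosomes and carry gene families such as WASH, DDX11L and FAM138. H3K27ac marks active promoters and enhancers, and H3K27me3 is laid down by Polycomb and marks repressed chromatin.

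The copied blocks are shown by the FAM138 genes, long noncoding RNA genes of subtelomeres. RefSeq promoter windows on GRCh38.p14, from 250 bases before to 50 bases after the gene start, were found for FAM138A (end 1p), FAM138C (9p), FAM138D (12p), FAM138E (15q) and FAM138F (19p). All 5 windows held 1 sequence. FAM138B, an internal copy on chromosome 2, differed from it by A20C, C48T and T135C, counted from 1 at the 5′ end of the window with the base of the end copies first. Of 35116 promoter windows in the table, 603 (1.72%) shared their exact sequence with another entry. The end copy lies at chr1:36032-36331 (minus strand) for FAM138A and the internal copy at chr2:113577132-113577431 (plus strand). These positions are on GRCh38.p14 and cannot be compared with the hg19 positions of the peaks. Both are written 5′ to 3′, with the 3 differing bases in capitals.
FAM138A: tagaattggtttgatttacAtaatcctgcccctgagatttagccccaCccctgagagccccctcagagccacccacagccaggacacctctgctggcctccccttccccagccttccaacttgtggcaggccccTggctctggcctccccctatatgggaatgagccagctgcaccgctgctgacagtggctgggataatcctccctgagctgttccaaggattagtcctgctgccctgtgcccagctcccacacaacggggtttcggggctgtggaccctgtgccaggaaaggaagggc
FAM138B: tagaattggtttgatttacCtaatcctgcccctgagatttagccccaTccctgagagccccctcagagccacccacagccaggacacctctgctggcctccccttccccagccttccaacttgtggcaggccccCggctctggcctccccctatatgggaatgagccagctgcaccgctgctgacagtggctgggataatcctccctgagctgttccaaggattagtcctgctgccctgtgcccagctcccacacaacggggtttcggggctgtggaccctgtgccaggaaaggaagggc
No source used here says how reads that match several places were treated, so a peak inside such a block cannot be told apart from its copies.

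Across the whole series, lists held 2965 to 22318 peaks on chromosomes 1 to 22 for H3K27ac and 64216 to 104708 for H3K27me3. Read depth is unknown for all lists. The smallest list was Active Motif 39133 at 15 cycles.

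Of the 39 ends, 11 carried a peak in all 30 lists, that is in both marks and under every protocol: 1p, 5p, 7p, 12p and 18p on short arms, and 1q, 3q, 4q, 9q, 12q and 20q on long arms. Among all 100 kb bins of chromosomes 1 to 22, 0.375% held a peak in all 30 lists. Counting the marks apart, 17 ends had a peak in all 25 H3K27ac lists, where 1.71% of bins did, and 18 ends had one in all 5 H3K27me3 lists, where 24.6% of bins did. As shares of the 39 ends these counts are 28.2%, 43.6% and 46.2%. Among the bins with a peak in at least 1 list, as every q end has by construction, the shares were 0.62%, 2.83% and 40.7%, so the H3K27me3 share at the ends was near that background. Short arms, where no window depends on the peaks, gave 8 ends in all 25 H3K27ac lists and 7 in all 5 H3K27me3 lists. Long arms gave 9 and 11. The count of 11 ends was 4 when every list was cut to its 2965 strongest peaks, the size of the smallest, and 5 without peaks in the outermost 5 kb, counted from the outermost peak base of any list at that end.

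Other ends held a peak in every list of 1 mark and in some or none of the other. The 6 ends with a peak in all 25 H3K27ac lists but not all 5 H3K27me3 lists were 4p, 9p, 15q, 16q, 19p and 19q. The 7 ends with the reverse pattern were 7q, 10p, 11q, 17p, 17q, 18q and 22q. No list of either mark had a peak at 3p or 20p, and 8q, 11p, 13q and 14q had none for H3K27me3. Many of these 13 still carried both marks, such as 4p and 15q with H3K27me3 in 4 of 5 lists and 7q with H3K27ac in 20 of 25. Uneven ends were 10p and 11q, each with a peak in 2 of 25 H3K27ac lists and 5 of 5 H3K27me3 lists, and 13q, with 23 of 25 and 0 of 5. In the gene table the outermost protein-coding gene at 10p was TUBB8, a tubulin gene.

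**Figure D1:**
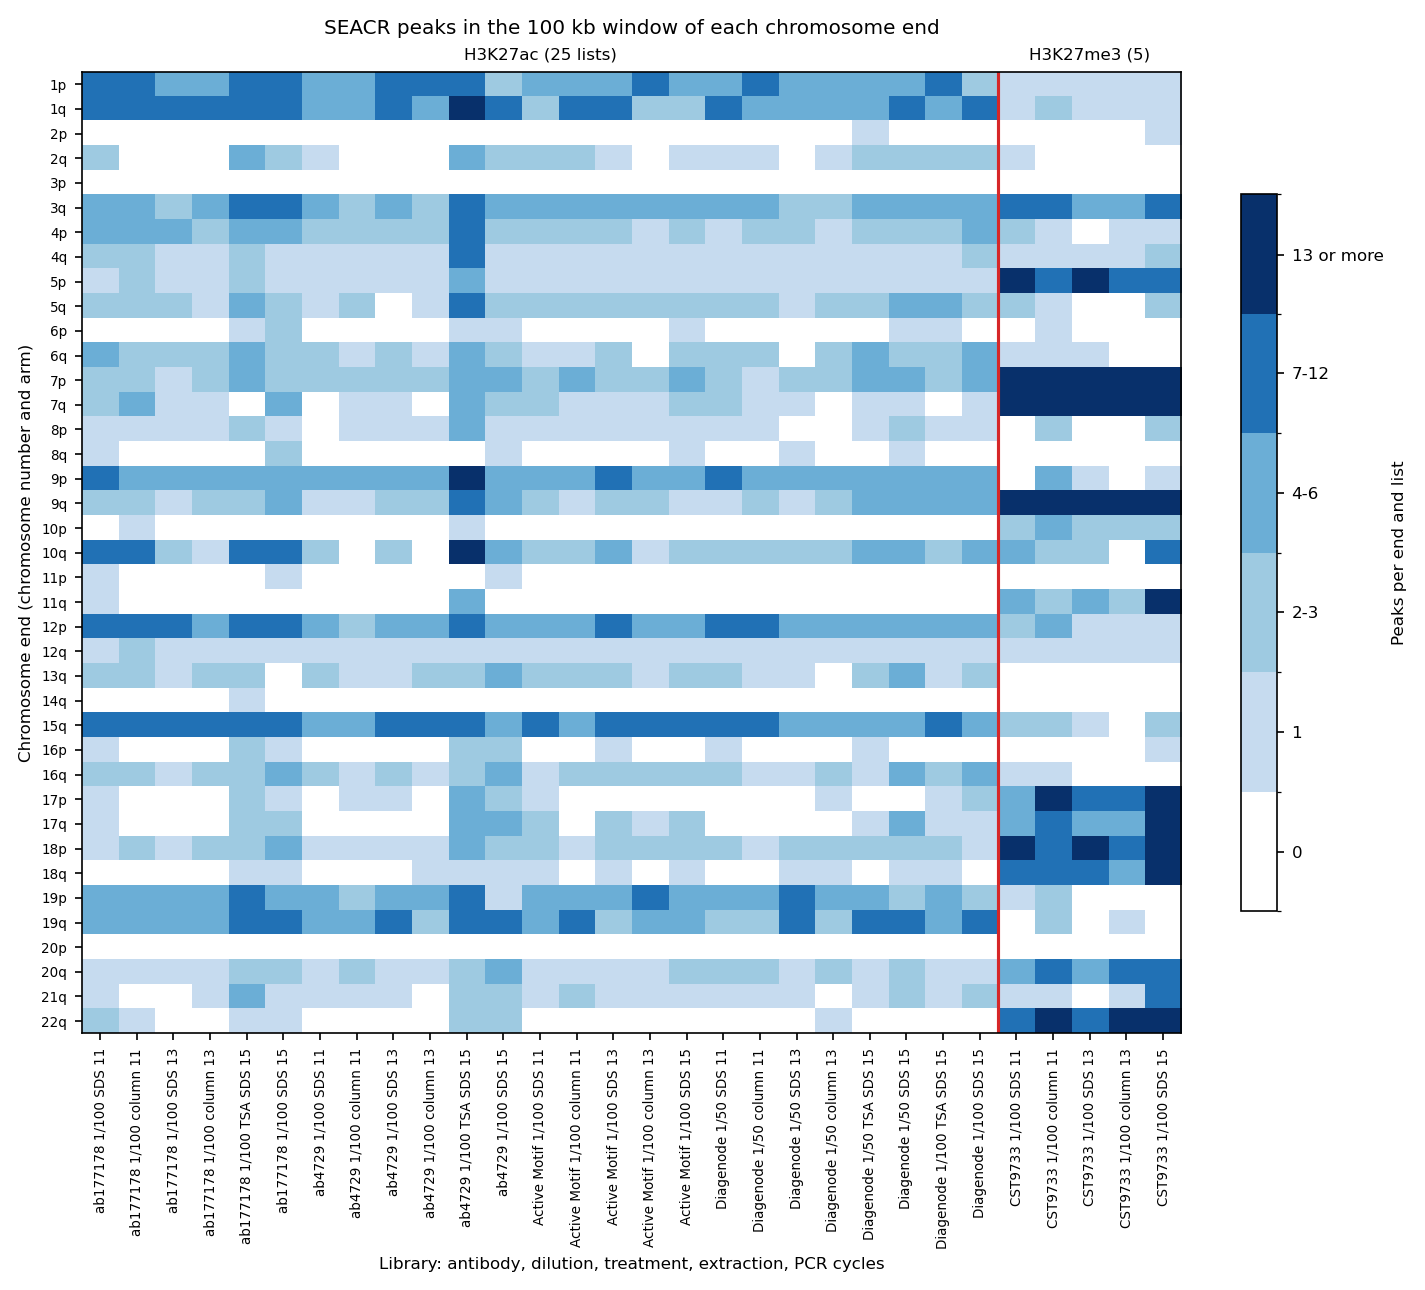
Number of SEACR peaks in each of 39 end windows (vertical axis) in each of 30 libraries (horizontal axis), with shading for the count and a red line between H3K27ac and H3K27me3. Rows such as 1p and 12q are shaded in every column, 7p, 7q and 9q are darkest to the right of the line, and 3p and 20p are empty.

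A single list had a peak at 22 to 33 ends for H3K27ac (median 26) and at 21 to 30 ends for H3K27me3 (median 27). The share of 100 kb bins with a peak was 7.24% to 31.3% (median 13.5%) for H3K27ac and 32.6% to 37.6% (median 34.9%) for H3K27me3. In 30 of 30 lists the share of ends with a peak was above the share of bins. Each q window closes on a peak of these lists and the bins do not, so the rule itself favours the ends. Members made up 0.777% to 2.66% of the peaks of an H3K27ac list (median 1.15%) and 0.205% to 0.269% of an H3K27me3 list (median 0.224%). The end windows span 0.135% of the length analysed. The lowest H3K27ac share, 0.777%, was ab4729 untreated at 15 cycles (95% Wilson interval 0.640% to 0.943%) and the highest, 2.66%, was Active Motif 39133 at 15 cycles (2.14% to 3.31%). The intervals cover counting error only, with the peak as the unit, and treat the peaks of a list as independent. They hold no error between libraries, as each condition had a single library. PCR copies also cannot be told from separate molecules when no identifiers are attached.

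The share of peak signal at the ends was higher in each of the 25 H3K27ac lists than in any of the 5 H3K27me3 lists. Of the total SEACR signal on chromosomes 1 to 22, the ends held 1.38% to 35.1% in H3K27ac lists (median 5.95%). The corresponding shares for CST9733 were 0.424% at 15 cycles, 0.540% with SDS and 0.469% with column extraction at 11 cycles, and 0.326% with SDS and 0.333% with column extraction at 13 cycles. The ends covered 59433 to 409116 bp (median 94744 bp) in H3K27ac lists and 115135 to 316205 bp (median 126844 bp) in H3K27me3 lists. Their signal per covered base was 1.66 to 19.2 times that of the rest of the list for H3K27ac (median 4.50) and 1.55 to 2.15 times for H3K27me3 (median 1.67).

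Matched by protocol, CST9733 was below the geometric mean of the 4 H3K27ac antibodies in 5 of 5 comparisons, 0.424% against 8.16% at 15 cycles and 0.469% against 3.49% for column extraction at 11 cycles, for example. The mean log2 ratio was -3.66 ± 0.53 (SD, n = 5). The exact two-sided sign-flip permutation test gave p = 0.0625, the smallest that 5 pairs allow, and 0.15 after Benjamini-Hochberg adjustment over 12 tests, so the design could not pass a threshold of 0.05. With equal list sizes the mean log2 ratio of the share was -2.84 ± 0.52 (SD, n = 5). The number of ends with a peak differed by -0.80 ± 3.62 (SD, n = 5), lower for H3K27me3 in 4 of 5 comparisons (exact permutation p = 0.625, adjusted 0.682). That difference was -11.8 ± 2.997 with equal list sizes (exact permutation p = 0.0625, adjusted 0.107) and turned to 3.15 when the last base of each chromosome was taken from the lists of the other mark.

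End peaks stood high among the peaks of their own list. Their median rank percentile by total signal was 65.2 to 86.3 in H3K27ac lists (median 77.2), against 50 for a typical peak, and 54.3 to 59.0 in H3K27me3 lists (median 55.7). The H3K27ac median rank exceeded 50 by 25.0 ± 6.29 percentile points (SD, 25 lists), in 25 of 25 lists. A two-sided permutation test gave p = 1e-05, the smallest that 100000 draws can give, and 0.00012 adjusted. The 25 lists share a cell line, antibodies and many of the same ends, so they are not independent. The H3K27ac rank test was the only one of the 12 that passed the threshold. For H3K27me3 the excess was 6.04 ± 1.81 points (SD, n = 5), in 5 of 5 lists (exact permutation p = 0.0625, the smallest possible, adjusted 0.15). It was 14.5 points with 50 kb windows, 10.1 with 200 kb windows and 12.7 with equal list sizes.

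Width did not set the ends apart in the same way. Median width at the ends was 695 to 2531 bp in H3K27ac lists (median 952 bp) and 715 to 2745 bp elsewhere (median 1037 bp). The mean log2 ratio was -0.07 ± 0.12 (SD, 25 lists), lower at the ends in 17 lists and higher in 7 (permutation p = 0.00908, adjusted 0.0545). For H3K27me3 the medians were 582 to 935 bp at the ends and 596 to 961 bp elsewhere, with a log2 ratio of -0.03 ± 0.04 (SD, n = 5, exact permutation p = 0.125, adjusted 0.25), and of -0.48 ± 0.16 with equal list sizes. The H3K27ac difference changed sign, to 0.06, when peaks in the outermost 5 kb were left out, and with 50 kb windows it was -0.21 and passed the threshold.

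One peak dominated. The outermost peak of 5p began 10001 to 10004 bases into chromosome 5 and was 1787 to 2336 bp wide in H3K27ac lists and 1780 to 1878 bp wide in H3K27me3 lists. It was the strongest end peak in 30 of 30 lists. It was also the strongest peak of chromosomes 1 to 22 in 21 of 25 H3K27ac lists and the second strongest in the remaining 4. In the H3K27me3 lists its place ran from 2 to 8. No control library without an antibody was used here, and the treatment of reads that match several places is unknown. Whether this peak, present with every antibody, reflects either mark was not tested.

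In H3K27ac lists this peak alone took 0.254% (ab177178, SDS, 13 cycles) to 28.3% (Active Motif 39133, 15 cycles) of the signal of chromosomes 1 to 22, with a median of 3.31%. In the CST9733 lists it took 0.155% at 15 cycles, 0.226% (SDS) and 0.143% (column) at 11 cycles, and 0.0841% (SDS) and 0.0854% (column) at 13 cycles. No H3K27me3 list reached the lowest H3K27ac list. It supplied 18.4% to 80.5% of all end signal in H3K27ac lists, more than 50% in 17 of 25, and 25.7% to 41.9% in H3K27me3 lists. With this peak removed from the list, the ends still held 1.13% to 9.53% of the remaining H3K27ac signal (median 2.55%) and 0.242% to 0.327% of the H3K27me3 signal (median 0.270%). Without it the mark ratio was -3.15 ± 0.44 (SD, n = 5) on the log2 scale.

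**Figure D2:**
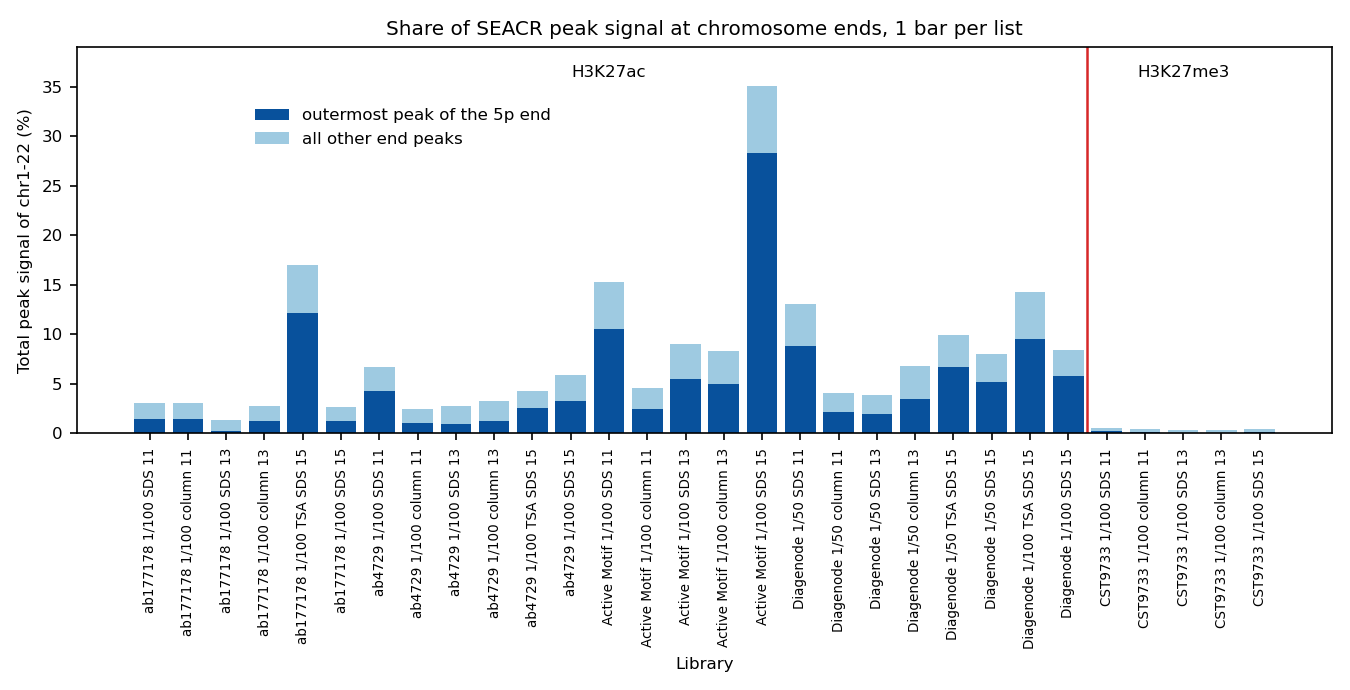
Percentage of the total SEACR signal of chromosomes 1 to 22 found at the ends (vertical axis), 1 bar per library, split into the outermost 5p peak (dark) and all other end peaks (light). Active Motif 39133 at 15 cycles reaches 35.1%, of which 28.3% is the 5p peak, and the 5 H3K27me3 bars stay at or under 0.540%.

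Merging overlapping end peaks of all lists gave 398 regions, of which 8 held a peak in all 30 lists and 139 in 1 list only. Position within an end was measured from the outermost peak base of any list at that end, so some region lies at 0 at every end with peaks, and 1q, 4q and 12q set their own edges. Of the 8, 5 held that outermost base: chr5:10001-12339 (5p), chr18:10001-11064 (18p), chr1:249238979-249240622 (1q), chr4:191043440-191044276 (4q) and chr12:133841255-133841895 (12q). The other 3 lay further in, at chr12:94635-95739 (12p, 33755 bp from a first peak base at 60880), chr20:62917707-62919038 (20q, 35830 bp) and chr3:197899430-197901747 (3q, 52191 bp). After 5p, the 12q region ranked highest.

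The 12q region was narrow, with 431 bp covered in the median H3K27ac list. It held 0.0283% to 1.82% of the signal in H3K27ac lists (median 0.224%), at 51.0 times the mean signal per covered base of the list (range 8.004 to 213). In H3K27me3 lists it held 0.00914% to 0.0199%, at 10.9 to 44.1 times the list mean. The 5p region stood at 139.5 times the list mean in the median H3K27ac list (range 15.5 to 861) and at 25.7 to 125 times in the H3K27me3 lists. Both regions stood above the list mean in lists of both marks. They were named for their high rank by total signal, so this partly follows from that choice.

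The remaining 6 regions held less. The median H3K27ac share was 0.132% at 12p, 0.119% at 18p, 0.111% at 1q, 0.0973% at 4q, 0.0962% at 3q and 0.0784% at 20q. The 20q region had the lowest rank of the 8, down to percentile 53.9 in an H3K27ac list. In each of the 8 regions the share was lower for CST9733 than for the H3K27ac antibodies in 5 of 5 protocols. Mean log2 ratios ran from -4.34 ± 0.58 (5p) to -3.83 ± 0.77 (12p) (SD, n = 5). A share depends on the total of its list, and the H3K27me3 lists held more peaks. By rank the marks were closer: mean percentiles ran from 95.4 (20q) to 100 (5p) for H3K27ac. For H3K27me3 they ran from 92.3 (20q) to 99.99 (5p).

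A second group of regions was found in all 25 H3K27ac lists and rarely in H3K27me3. It was led by chr16:90229594-90242177 (16q), chr15:102489838-102510885 (15q), chr1:11207-41467 (1p), chr12:66725-82896 (12p) and chr9:17561-40441 (9p). The 1p region held no peak in any H3K27me3 list, and each of the other 4 held one in 1 of 5. They were broad blocks, 12584 to 30261 bp after merging, built from peaks with median widths of 1271 to 2711 bp. The widest single H3K27ac end peak was 30261 bp, at 1p.

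Of these 5 ends, 1p, 9p, 12p and 15q belong to the 6 ends that hold WASH, DDX11L or FAM138 genes in the order of the GRCh38.p14 gene table, with 16p and 19p. WASH genes encode or derive from a subunit of an actin-nucleating complex, and DDX11L genes are helicase-like pseudogenes. The grouping was made after the values were seen and is a description. The 6 ends held 766 of 2186 H3K27ac end peaks (35.0%) and 35 of 883 H3K27me3 end peaks (3.96%), and 5 of the 6 had an H3K27ac peak in all 25 lists. The exception was 16p, with a peak in 8 lists. Among the other 33 ends, 12 had an H3K27ac peak in all 25 lists and 16 had an H3K27me3 peak in all 5. The median end held 146.5 H3K27ac peaks over all lists among the 6 and 31 among the 33. High counts were not particular to the 6: 1q held 180 and 19q 151, against 154 at 1p. The 11 ends with an RPL23A copy in the gene table, none of them among the 6, held 34.3% of H3K27ac and 18.2% of H3K27me3 end peaks. On GRCh38.p14 the identical FAM138 windows lie at 5 of these ends. Whether they fall inside the hg19 end windows was not examined, and their part in these counts was not tested.

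The H3K27me3 peaks fell at other ends. The median list had 24 at 7p, 20 at 9q, 16 at 7q, 13 each at 18p and 22q, and 12 each at 5p and 17p. H3K27ac lists had medians of 3 at 7p, 3 at 9q, 1 at 7q, 2 at 18p, 0 at 22q, 1 at 5p and 0 at 17p. In the gene table, 7q ends with VIPR2, a neuropeptide receptor gene, and 22q with RABL2B, ACR and SHANK3, the last a synaptic scaffold gene. Of the 398 regions, 42 had a peak in all 5 H3K27me3 lists, and 22 of those had none in any H3K27ac list. The strongest of the 22 were chr9:141096665-141104127 (9q, mean rank percentile 97.2), chr7:38849-47185 (7p, 92.4), chr5:79771-82696 (5p, 91.9), chr18:44822-49154 (18p, 89.9) and chr22:51151622-51157464 (22q, 88.9). Thus 5p and 18p each had an outermost region with peaks in the lists of both marks. At 69770 and 34821 bp from the edge, each also had a region with peaks in H3K27me3 lists alone.

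Each H3K27ac list was set against the untreated H3K27me3 list of the same extraction and cycle number, the 4 TSA lists included. H3K27ac end peaks overlapped an H3K27me3 peak more often than other H3K27ac peaks did. The share overlapping was 15.4% to 48.1% at the ends (median 24.2%) and 2.56% to 24.6% elsewhere (median 7.71%). It was higher at the ends in 25 of 25 lists, by 15.5 ± 4.73 percentage points (SD). A two-sided permutation test, added after the values were seen and outside the 12, gave p = 1e-05, the smallest that 100000 draws can give. Over the 21 untreated lists the medians were 23.6% and 6.38%, higher at the ends in 21 of 21. The 25 lists were set against only 5 H3K27me3 lists, so these differences are not independent. Over the 25 lists, 558 of 2186 end peaks overlapped an H3K27me3 peak. The 8 regions found in all 30 lists, the 5p region among them, held peaks in both lists of every comparison. Their part in the 558 and in the difference was not tested. The 4 lists set against the column list at 11 cycles were highest at the ends, at 35.6% to 48.1%. Elsewhere these 4 were at 19.25% to 24.6%. Without them the range was 15.4% to 31.7% at the ends and 2.56% to 20.7% elsewhere, higher at the ends in 21 of 21 lists.

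By distance, H3K27ac peak density in the first 100 kb was 8.49 times the mean density of the list (median; range 5.74 to 19.7). It was 4.20 times at 100 to 200 kb and 3.69 times at 200 to 300 kb. H3K27me3 density was 1.66 times in the first 100 kb and 3.80 times at 800 to 900 kb. The median share of signal in H3K27ac lists was 5.95%, 0.856% and 0.421% in the first 3 windows, and for H3K27me3 0.424%, 0.471% and 0.292%. The H3K27ac share did not decline steadily: at 500 to 600 kb its median was 1.13%, with 6.51% in the highest list. The marks therefore differed in shape over these windows: H3K27ac was densest in the outermost window, H3K27me3 further in. Density was taken over full windows, although at 6 p ends the first peak base in any list lay from 60014 to 81686. At 17 q ends the first window closed on a peak from H3K27ac lists alone. The part of either feature in the difference between the marks was not tested.

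**Figure D3:**
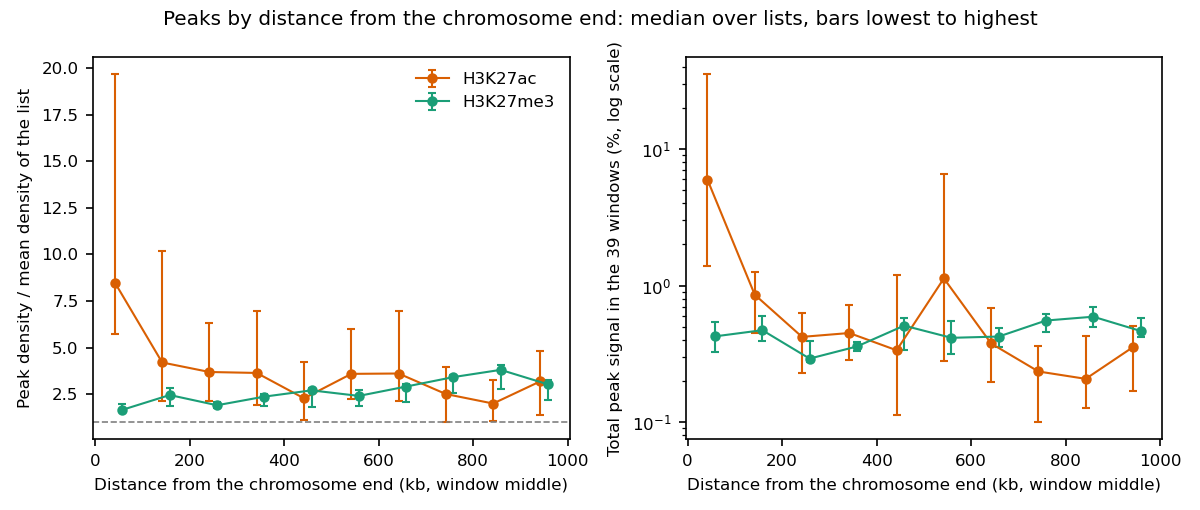
Peak density relative to the mean of the list (left) and share of total signal on a log axis (right) in 10 windows of 100 kb, by distance from the chromosome end; points are medians over 25 H3K27ac or 5 H3K27me3 lists and bars run from the lowest to the highest list. The H3K27ac median is 8.49 in the first window and 4.20 in the second, and the H3K27me3 median is 1.66 and 2.45.

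Positions of the first peaks differed among short arms. At 7 p ends the first peak base in any list lay between 10001 and 10014 (1p, 2p, 4p, 5p, 7p, 9p and 18p), and at 17p it lay at 1099. At 6 p ends it lay from 60014 (19p) to 81686 (10p). The hg19 sequence opens with unsequenced bases on most chromosomes. At 5 ends, 10 peaks crossed the inner boundary of a window and were not members. The nearest member inside it was 4884 bp away at the median end and the nearest peak outside was 5805 bp away.

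TSA was compared with no treatment at 15 cycles with SDS extraction, in 4 matched pairs. The signal share at the ends went from 2.64% to 17.0% with ab177178. With ab4729 it went from 5.95% to 4.27%. With Diagenode it went from 8.44% to 14.3% at 1/100 and from 8.06% to 9.90% at 1/50. The share was thus higher with TSA in 3 pairs and lower in 1, a mean log2 ratio of 0.81 ± 1.35 (SD, n = 4), and the exact two-sided permutation test gave p = 0.375 (smallest possible 0.125, adjusted 0.45). Leaving out the ab177178 pair brought the ratio down to 0.19.

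The 5p peak followed the same order: its share went from 1.26% to 12.2% with ab177178, from 3.31% to 2.53% with ab4729, from 5.78% to 9.57% with Diagenode 1/100 and from 5.20% to 6.72% with Diagenode 1/50. Each of the 8 regions found in all lists was higher in 3 pairs and lower in the ab4729 pair. The whole lists moved too. Peaks on chromosomes 1 to 22 went from 16437 to 6903 with ab177178, from 13001 to 22318 with ab4729, from 7656 to 4403 with Diagenode 1/100 and from 11531 to 6172 with Diagenode 1/50, so the pair with a lower end share was the pair with more peaks. The part of list size in the result was not tested beyond an equal number of peaks per list, where the mean log2 ratio was 0.52.

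Median width at the ends was smaller with TSA in 4 of 4 pairs: 719 against 1345 bp (ab177178), 952 against 2531 bp (ab4729), 946 against 1282 bp (Diagenode 1/100) and 885 against 2042 bp (Diagenode 1/50). Away from the ends it was smaller in the same 4 pairs, 754 against 1394 bp, 922 against 2745 bp, 1147 against 1345 bp and 1078 against 2262 bp. Whether width at the ends differed from that of the rest under TSA was not tested. Ends with a peak numbered 31 against 32, 33 against 33, 28 against 27 and 28 against 29, a mean difference of -0.25 ± 0.96 (SD, n = 4, exact permutation p = 1.0), which turned to 0.75 with equal list sizes. With TSA, 8q lost its peak in 3 of 4 pairs, and 7q and 11p in 2 each, whereas no end gained one in more than 1 pair.

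Extraction was compared in 10 pairs at 11 and 13 cycles. The share of signal at the ends was higher with the column in 5 pairs and lower in 5, a mean log2 ratio of -0.30 ± 0.98 (SD, n = 10), and an exact permutation test gave p = 0.371 (adjusted 0.45). At 11 cycles it was lower with the column in 4 of 5 antibodies, such as 4.62% against 15.3% for Active Motif and 4.13% against 13.1% for Diagenode. At 13 cycles it was higher in 4 of 5, such as 2.75% against 1.38% for ab177178 and 6.86% against 3.90% for Diagenode. The log2 ratio was -1.002 ± 0.848 at 11 cycles and 0.39 ± 0.49 at 13 cycles. The difference, 1.40 ± 0.84 (SD, n = 5), was positive for 5 of 5 antibodies, with an exact permutation p of 0.0625, the smallest possible (adjusted 0.125 over 2 such tests). The number of ends with a peak differed by -1.30 ± 2.87 (SD, n = 10, exact permutation p = 0.234, adjusted 0.352), and by 1.10 with 200 kb windows. Between SDS and column, 10q and 16p each lost a peak in 3 pairs with no gain, and 2q lost one in 4 and gained one in 1.

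Cycle number was compared in the same 20 libraries. At 13 cycles a peak was present at fewer ends than at 11 in 8 of 10 pairs and at more in 1, by -2.90 ± 3.57 (SD, n = 10). The exact permutation p was 0.0195, and 0.0781 adjusted, which missed the threshold. With equal list sizes the difference was -1.30 ± 2.98 (SD, n = 10, exact permutation p = 0.25, adjusted 0.3). The pairs with the greatest loss were ab177178 with SDS (32 ends to 23) and CST9733 with the column (30 to 21). At 13 cycles 2q lost its peak in 5 pairs, 5q and 6q in 3 each and 21q in 4, with a gain at 21q in 1, and 18q gained one in 3 pairs. The share of signal was lower at 13 cycles in 7 of 10 pairs, a log2 ratio of -0.44 ± 0.88 (SD, n = 10, exact permutation p = 0.146, adjusted 0.251), and of -0.16 without the 5p peak. The 8 regions found in all lists did not move together: 3q was higher at 13 cycles in 9 of 10 pairs (mean log2 ratio 1.42 ± 1.24) and 20q in 8 (1.25 ± 1.34), whereas 4q was lower in 8 (-0.97 ± 1.21) and 5p in 7 (-0.83 ± 1.23) (SD, n = 10).

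**Figure D4:**
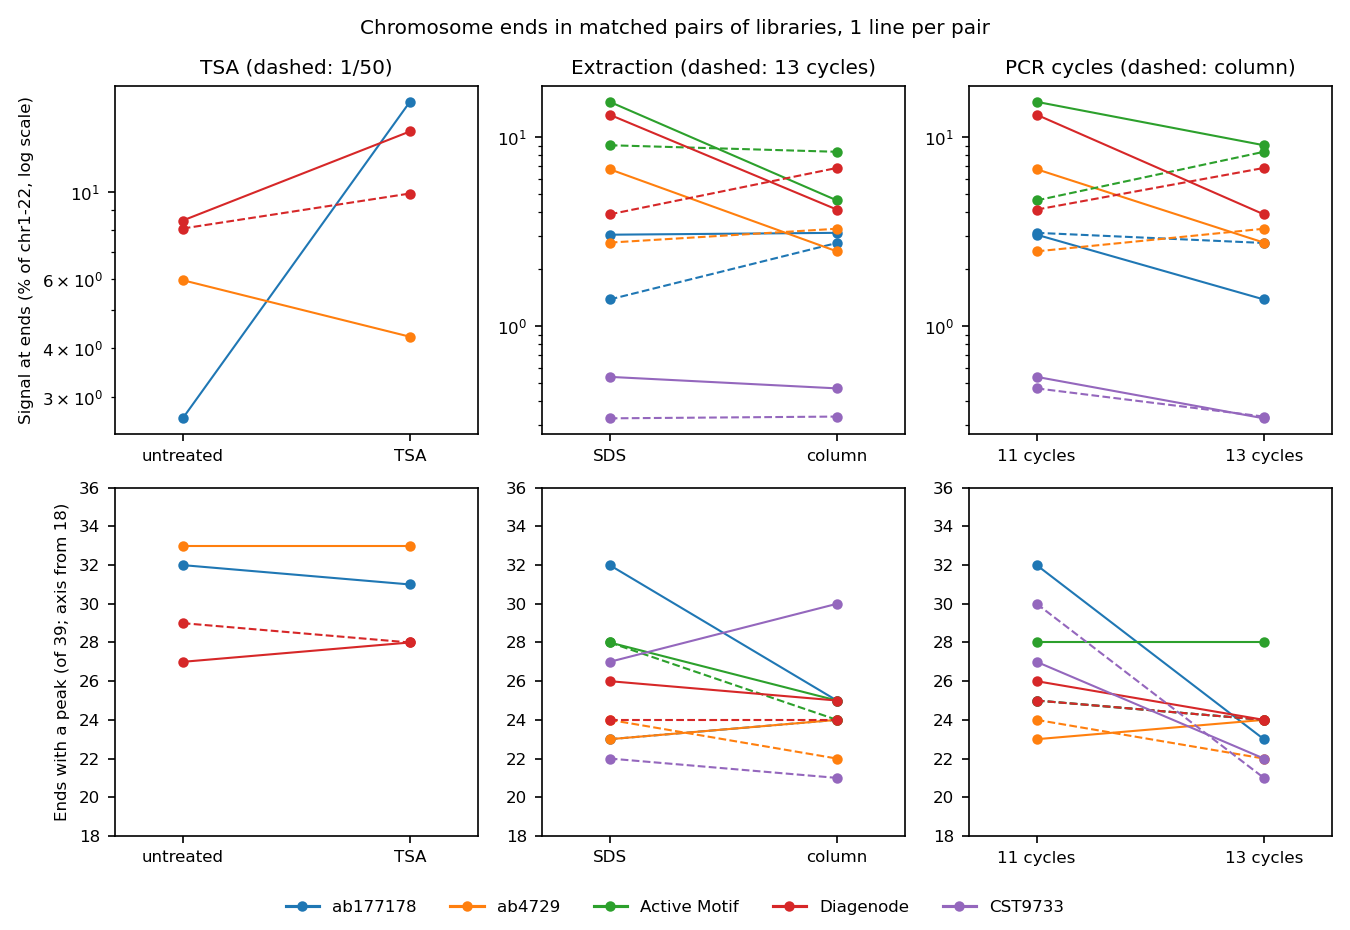
Share of signal at the ends (top, log axis) and number of the 39 ends with a peak (bottom, axis from 18 to 36) in matched pairs of libraries for TSA, extraction and cycle number, 1 line per pair, coloured by antibody. Lines for the share cross in the extraction panel, with 11-cycle pairs mostly falling and 13-cycle pairs mostly rising, and most lines for the number of ends run downward from 11 to 13 cycles.

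A second caller, MACS2, was available for the 6 untreated libraries at 15 cycles. It placed a peak at 27 ends for ab177178, 34 for ab4729, 28 for Active Motif, 28 for Diagenode 1/100, 33 for Diagenode 1/50 and 30 for CST9733, where SEACR gave 32, 33, 29, 27, 29 and 27. In the same order, 27, 33, 28, 27, 28 and 26 ends were found by both. Ends with a peak in all 6 libraries numbered 19 with MACS2 and 20 with SEACR.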

How the data were processed

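CUT&Tag peak lists from 30 libraries of K562 cells were used, 25 for H3K27ac and 5 for H3K27me3. Per the submitters' processing notes, the authors worked on hg19 with the peak callers SEACR and MACS2, the aligner Bowtie2 2.2.9, the trimmer Trim Galore 0.6.6, and bedtools 2.25.0, bcl2fastq, SAMtools 1.3.1 and Picard 2.6.0. These notes give no order of steps. Peaks were called per library, without duplicate reads per the labels. At 11 and 13 cycles the authors brought reads to one depth before duplicates were removed, per the labels, and lists at 15 cycles are not described so. No source used here gives the SEACR mode, its threshold or the read depth. Each deposited SEACR list gives the total and maximum signal of every peak. For MACS2 only peak positions entered: the fold enrichment ratio, score, −log10 p-value and −log10 q-value deposited by the authors were not used.

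Total signal was used only as a share or rank within a list. Members lay wholly inside a 100 kb end window. The members and lists were chosen with earlier results of these data known. Named regions were peaks of all lists merged where they overlapped: those in all 30 lists, the 5 highest in all H3K27ac but not all H3K27me3 lists, and the 5 highest in all H3K27me3 and fewest H3K27ac lists, by mean rank. Named ends were those without a peak in 1 mark and those that gained or lost a peak in most pairs. Matched conditions, which are not replicates, were compared by sign-flip permutation tests (two-sided, on the mean), exact up to 10 pairs and with 100000 draws for 25 lists, with Benjamini-Hochberg adjustment over 12 tests and a threshold of 0.05. A p-value therefore measures only the spread among conditions. Gene names came from the order of genes in RefSeq on GRCh38.p14, which also lists genes of alternate scaffolds under a chromosome. Alternatives covered window size, overlap rule, list size, the outermost 5 kb, merging within 1 kb, the mark that sets the chromosome end, the caller and each antibody or list left out. Values were computed with scipy 1.17.1, pandas 2.3.3 and numpy 2.4.6 in Python 3.11.15, and drawn with matplotlib 3.10.9. On simulated data, 96 of 96 peaks planted at the ends of the untreated ab177178 list at 15 cycles were recovered, and the permutation test gave the p-value of scipy in 3 of 3 simulated sets of differences.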

Additional observations from a re-analysis of the deposited data

Results flagged for a closer look

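Chromosome X was outside the rule, and its ends were examined in the same way as data the comparisons do not use. The last 100 kb before the largest peak end on X (chrX:155160555-155260554, hg19) held a peak in 30 of 30 lists, 25 for H3K27ac and 5 for H3K27me3, with 41 peaks in all. The first 100 kb held a peak in 4 lists, all H3K27ac. No control library without an antibody was used here. The Xq window closes at the largest peak end, so it holds a peak in at least 1 list by construction.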

How the results depend on the processing

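No paired analysis was possible because each condition has 1 library and the labels give no replicate numbers; matched conditions served as pairs. The H3K27ac rank excess kept its direction and stayed past the threshold under every alternative run, and no other test passed in the setting reported. The number of ends with a peak in every list was 4 with equal list sizes and 5 without the outermost 5 kb. Over the 6 libraries with both callers it was 19 with MACS2 and 20 with SEACR. The H3K27ac width difference passed at -0.21 (50 kb windows), -0.0706 (200 kb), -0.0692 (1 bp of overlap), -0.10 (equal list sizes), -0.0779 (without the 5p peak) and -0.0787 (first 100 kb counted from the first peak base), and was 0.0578 without the outermost 5 kb. The H3K27me3 width difference was -0.48 with equal list sizes, 0.0641 with 200 kb windows and 0.0255 with peaks merged within 1 kb. For TSA the difference in ends was 0.50 (50 kb windows, and without the outermost 5 kb), 0.75 (equal list sizes) and 0.25 (without the 5p peak). The mark difference in ends was -11.8 with equal list sizes, 0.15 (200 kb, and without the 5p peak) and 3.15 with the chromosome end set by the other mark, and for extraction 1.10 with 200 kb windows. The causes were not tested. The settings without the 5p peak and from the first peak base were chosen after seeing the data.

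Leaving out 1 list or antibody at a time gave 11 to 12 ends in every list. With the windows held fixed, that count can only stay or rise when a list is left out. Ratios or differences were -3.85 to -3.50 (mark, share), -2.31 to -0.06 (mark, ends), 0.19 to 1.25 (TSA, share) and -0.50 to 0 (TSA, ends). They were -0.51 to -0.15 (extraction, share), -1.88 to -0.75 (extraction, ends), -0.56 to -0.38 (cycles, share) and -3.50 to -1.88 (cycles, ends). Width and rank gave -0.08 to -0.05 and 23.6 to 26.6 for H3K27ac, and -0.04 to -0.02 and 5.32 to 6.48 for H3K27me3.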
